A study of Homo sapiens with 1 sample.

Results

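The miR-193 and miR-365 clusters are a pair of paralogous miRNA loci in the human genome, and their mature miRNAs were examined here in colorectal carcinoma cells. The members were chosen by name, as the miRNA spots of the array that carry hsa-miR-193a-3p, hsa-miR-193a-5p, hsa-miR-193b-3p, hsa-miR-193b-5p, hsa-miR-365a-3p, hsa-miR-365a-5p or hsa-miR-365b-5p, and all 7 were found among the 2549 miRNAs of the array. The cells were DLD-1, an established line from a human colorectal carcinoma, and had received negative control siRNA (si-NC), and total RNA was hybridised to 1 single-colour Agilent miRNA array. The study compared such cells with cells depleted of circLONP2, a circular RNA of the LONP2 gene, in order to look for miRNAs that depend on it, and that arm was not analysed here. With 1 array and no biological replicate, no group was compared and no p-value was computed. Each error below is technical, either the spread of replicate spots or the error that the scanner software assigns to a signal.

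A miRNA gene is transcribed as a long primary transcript, from which the Drosha and DGCR8 complex cuts a hairpin. Dicer then releases a 5p and a 3p arm, and as a rule one of them is kept as the guide of the silencing complex. Pairing of the seed, near the 5′ end of the guide, with a messenger RNA represses that messenger. The 3p arms of miR-193a and miR-193b are known as repressors of growth and invasion genes, among them CCND1, PLAU and MCL1, and miR-365-3p is known to repress CCND1 as well. The miR-193b and miR-365 locus is also known for a role in brown fat differentiation.

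In RefSeq (GRCh38.p14), MIR193B and MIR365A lie on chromosome 16, 5235 bases apart, and MIR193A and MIR365B lie on chromosome 17, 15327 bases apart. These positions belong to the sequence table. The array was designed on hg19, and no coordinate of the array file was used. The hairpins are shown first, with both mature arms in capitals, since they show which arm of which locus each probe set reads.

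MIR193B (chr16:14303967-14304049, plus strand): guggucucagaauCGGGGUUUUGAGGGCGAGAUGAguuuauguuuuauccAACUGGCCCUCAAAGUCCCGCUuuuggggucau
MIR365A (chr16:14309285-14309371, plus strand): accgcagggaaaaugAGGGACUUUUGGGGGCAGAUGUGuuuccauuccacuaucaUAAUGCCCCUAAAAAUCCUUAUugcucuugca
MIR193A (chr17:31559996-31560083, plus strand): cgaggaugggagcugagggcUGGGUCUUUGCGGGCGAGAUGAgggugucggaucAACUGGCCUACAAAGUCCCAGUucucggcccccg
MIR365B (chr17:31575411-31575521, plus strand): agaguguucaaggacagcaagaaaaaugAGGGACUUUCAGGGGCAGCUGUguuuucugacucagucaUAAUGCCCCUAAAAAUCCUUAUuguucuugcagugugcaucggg

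The mature sequences follow with the seed, bases 2 to 8, in capitals, because the seeds group the arms by what they can pair with.

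hsa-miR-193a-3p: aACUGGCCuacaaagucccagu
hsa-miR-193b-3p: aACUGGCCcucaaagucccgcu
hsa-miR-365a-3p: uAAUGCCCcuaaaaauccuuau
hsa-miR-365b-3p: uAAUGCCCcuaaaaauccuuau
hsa-miR-193a-5p: uGGGUCUUugcgggcgagauga
hsa-miR-193b-5p: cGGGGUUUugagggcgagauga
hsa-miR-365a-5p: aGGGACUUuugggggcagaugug
hsa-miR-365b-5p: aGGGACUUucaggggcagcugu

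The 3p arms of miR-193a and miR-193b share the seed ACUGGCC, and no other mature miRNA of the RefSeq table has it. Counted from 1 at the 5′ end, with the base of miR-193a-3p first, they differ by U9C, A10U, A20G and G21C, so 4 of 22 bases outside the seed. The 5p arms of the same genes do not share a seed, since U5G and C6U fall within it, beside U1C and C11A. The 5p arms of miR-365a and miR-365b share the seed GGGACUU and differ by U10C, G11A and A19C, and miR-365a-5p has 1 more base at its 3′ end. The 3p arms of miR-365a and miR-365b are identical over all 22 bases. The array lists that sequence under miR-365a-3p alone, so its signal from MIR365A and from MIR365B cannot be told apart. Of the 8 arms of the 4 hairpins, the 5p arms of miR-365 are therefore the part of that gene pair that can carry a signal of 1 locus.

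The array held 20 spots of each miRNA, and each member had 2 probes with 10 spots each, 140 spots in all. No spot of a member was saturated. The negative control spots, 1000 in number, had a 99th percentile of 16.1 in background-subtracted signal, and 1.40% of them were well above background. As a check of the cell type, all 9 epithelial and colon marker miRNAs were called detected, with total gene signals between 52.2 and 9249. Of 18 markers of other tissues, 6 were called detected, between 12.4 and 695, where 44.4% of all miRNAs were. They were 3 of 4 for blood, 1 of 7 for muscle, 1 of 4 for endothelium and stroma, 0 of 1 for liver and 1 of 2 for neural cells. The blood marker miR-142-3p, at 695, was brighter than miR-194-5p at 319 and miR-375 at 52.2 among the epithelial and colon markers. Whether RNA of other cells had a part in any member's signal was not tested.

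Members named for each locus were called detected. Apart from miR-365a-3p, which both loci encode, those of the chromosome 16 locus were miR-193b-3p and miR-193b-5p. Binding of their probes to the paralogs from chromosome 17 was not tested. The scanner software called 6 of the 7 members detected, where 44.4% of all 2549 miRNAs were called detected. The total gene signal, which the software sums over the probes of a miRNA that pass 3 times their error, was 587 ± 41.5 (error from the software) for miR-365a-3p, the arm encoded at both loci. It was 34.6 ± 2.57 for miR-193a-3p and 31.4 ± 2.46 for miR-193b-3p. Among the 5p arms it was 15.0 ± 1.28 for miR-365b-5p, 5.06 ± 0.779 for miR-193b-5p and 2.13 ± 0.531 for miR-193a-5p. The seventh member, miR-365a-5p, was called undetected and carries the placeholder value of the software.

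**Figure D1:**
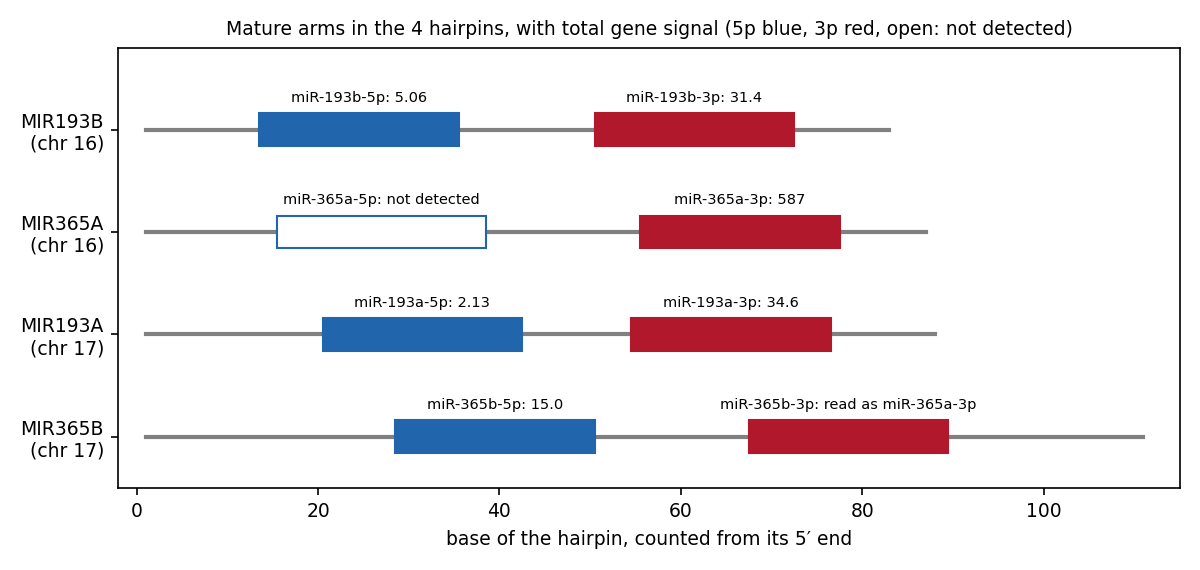
Map of the 4 hairpins to scale, with the base of the hairpin on the x axis, 5p arms in blue, 3p arms in red and the total gene signal above each arm. An open box marks the arm that was called undetected, miR-365a-5p, while its counterpart on chromosome 17, miR-365b-5p, carried 15.0.

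By arm, 3 of 3 members from the 3p arm and 3 of 4 from the 5p arm were called detected. Over the whole array 43.8% of the 3p arms and 49.1% of the 5p arms were called detected. By hairpin, MIR193B, MIR193A and MIR365B had both arms called detected, when the 3p arm of MIR365B is read through the identical miR-365a-3p, and MIR365A had its 3p arm alone. Over the array, 27.7% of the 769 hairpins with both arms measured had both arms called detected. In each hairpin with both arms called detected, the signal of the 3p arm was the higher value, although for MIR365B that signal may come from either locus. Signals of different probes depend on how each probe binds, so these values were not read as relative amounts of the arms.

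The 3p arms of miR-193, which share the seed ACUGGCC, were seen in every spot. The brighter probe of miR-193a-3p ran from 100.2 to 120, with a median of 109, in background-subtracted spot signal, and its dimmer probe from 70.4 to 84.7, with a median of 79.8. The means were 110.1 ± 7.28 and 78.8 ± 5.18 (SD, 10 spots each). All 20 spots were well above background and above the 99th percentile of the negative control spots, and the spots of the 2 probes did not overlap.

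For miR-193b-3p, the brighter probe ran from 104 to 123 with a median of 117 over its 10 spots, and the dimmer probe from 46.3 to 67.6 with a median of 54.7. Again all 20 spots were well above background and the probes did not overlap. The software marked 4 of the 10 spots of the brighter probe as outliers, and they lay on both sides of the rest, at 104, 110.3, 121 and 123. The mean was 117 ± 1.00 over the 6 remaining spots, and the SD was 5.21 over all 10, so the smaller SD follows from the trimming. The dimmer probe had a mean of 55.0 ± 6.38 (SD, 10 spots).

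The paralogs miR-193a-3p and miR-193b-3p were not resolved from each other. Their total gene signals differed by 3.16, less than the combined error of 3.56. The brighter probe gave the higher mean for miR-193b-3p, and the dimmer probe for miR-193a-3p. An edit distance of 4 separates the sequences, the smallest between any pair of members with different sequences, a value shared by both pairs of 5p arms. Whether the probes of either miRNA also bind the other was not tested.

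The arm with the seed AAUGCCC, miR-365a-3p, was the brightest member. The brighter probe ran from 1577 to 1769 with a median of 1689 over its spots, and the dimmer probe from 1367 to 1565 with a median of 1527. The lowest spot of the dimmer probe, 1367, and another at 1423 were left out as outliers. The means were 1672 ± 74.0 (SD, 10 spots) and 1535 ± 18.8 (SD, 8 spots). Over all 10 spots the dimmer probe had a mean of 1507 and an SD of 62.8, so its smaller SD follows from the trimming. The spots of the 2 probes did not overlap, yet the probes differed by 0.12 ± 0.02 (SE from replicate spots) on the log2 scale, the smallest difference of the 4 members for which it could be computed.

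The 5p arms of miR-365 gave opposite calls at the paralogous loci. The brighter probe of miR-365b-5p ran from 43.1 to 54.4, with a median of 49.5, and the dimmer probe from 27.8 to 36.6, with a median of 33.3. All 20 spots were well above background, and the means were 49.2 ± 3.83 and 32.6 ± 2.98 (SD, 10 spots each). For miR-365a-5p, whose seed is the same, the brighter probe ran from 2.50 to 6.36, with a median of 3.94. The dimmer probe ran from -1.58 to 14.0, with a median of 1.09 and 2 spots below 0. The highest of these spots, 14.0, was the single spot of miR-365a-5p well above background and was left out as an outlier.

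No spot of miR-365a-5p reached the 99th percentile of the negative control spots, and no spot of miR-365b-5p fell below it. The signal of the probes of miR-365a-5p was 1.52 and 0.458 times its error, where the lowest ratio of the best probe among all detected miRNAs was 3.00. The call of undetected says that neither probe of this arm reached 3 times its error. It does not show that the arm was absent. Another flag of the software, for a spot that is positive and significant, was set for 9 of 10 spots of the brighter probe. For the dimmer probe it was set for 2 of 10. The sequences of miR-365a-5p and miR-365b-5p are at an edit distance of 4, and their probes gave signals that did not overlap. Binding of the probes of either miRNA to the other was not tested.

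The 5p arms of miR-193 were close to the background. For miR-193b-5p the brighter probe ran from 15.7 to 23.5 with a median of 19.1, with all 10 spots well above background and 9 above the 99th percentile of the negative control spots. The dimmer probe ran from 5.50 to 10.8 with a median of 8.49, and none of its 10 spots was well above background. The means were 19.2 ± 2.50 and 8.43 ± 1.94 (SD, 10 spots each), so the probes did not overlap.

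The 5p arm of MIR193A, miR-193a-5p, a miRNA described as a repressor of TP73, was dimmer still. The brighter probe ran from 5.88 to 34.8 with a median of 10.2, and 3 of its 10 spots were well above background. The highest spot, 34.8, was left out as an outlier, which gave a mean of 11.6 ± 5.26 (SD, 9 spots). The dimmer probe ran from 4.43 to 11.4 with a median of 7.49 and had no spot well above background. Its mean was 7.39 ± 1.02 (SD, 8 spots), with its lowest and highest spots left out as outliers, and the SD was 1.88 over all 10. The spots of the 2 probes overlapped.

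The call of detection follows the best probe of a miRNA, and for these arms it lay nearer its limit for miR-193a-5p. The signal of the brighter probe of miR-193a-5p was 4.01 times its error and that of the dimmer probe 2.72 times, just outside the limit of 3, so the total of 2.13 rests on 1 probe. For miR-193b-5p the ratios were 5.91 and 3.06, the second just inside. Both probes thus enter its total, and its call does not turn on the dimmer one. A stricter rule, which asks that the spots of every probe be well above background in at least 50% of cases, kept 4 members, namely miR-365a-3p, miR-193a-3p, miR-193b-3p and miR-365b-5p, where 29.4% of all miRNAs passed. Asking that the median spot exceed 16.1, the 99th percentile given above, kept the same 4 members, where 31.2% of all miRNAs passed. Where the spots of 1 probe had to pass, miR-193b-5p was kept too, which made 5 members, and 37.9% of all miRNAs passed. Both arms passed the rule on every probe in 1 of the 4 hairpins, MIR365B, and the rule on 1 probe in MIR193B as well, where 11.3% and 21.2% of all hairpins did so. For MIR365B the 3p arm was again read through miR-365a-3p, whose locus cannot be told apart.

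**Figure D2:**
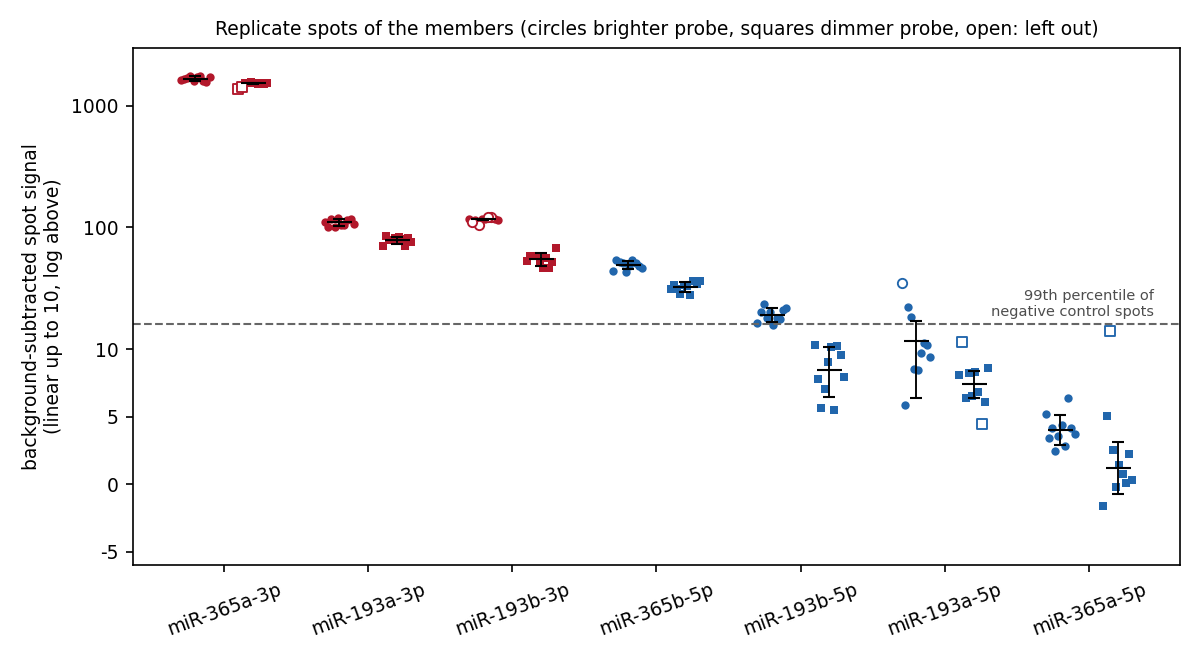
Background-subtracted signal of each replicate spot, with 10 spots for each of the 2 probes of a member, means and SD over the spots that were used, and open symbols for spots left out as outliers. The y axis is linear up to 10 and logarithmic above. Every spot of miR-365a-3p, miR-193a-3p, miR-193b-3p and miR-365b-5p lies above the 99th percentile of the negative control spots, 16.1, and every spot of miR-365a-5p lies below it.

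In the order of total gene signal, miR-365a-3p was followed by miR-193a-3p, miR-193b-3p, miR-365b-5p, miR-193b-5p and miR-193a-5p. Apart from miR-193a-3p and miR-193b-3p, neighbours in this order differed by more than their combined error. The order is that of signals and not of amounts. Among the 1133 detected miRNAs, miR-365a-3p ranked 83, miR-193a-3p 359, miR-193b-3p 374, miR-365b-5p 534, miR-193b-5p 845 and miR-193a-5p 1033. The median total gene signal was 23.2 over the 6 detected members and 12.5 over all detected miRNAs. These members spread from near the top to near the bottom of the detected range, with 92.7% of detected miRNAs below miR-365a-3p and 8.83% below miR-193a-5p.

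**Figure D3:**
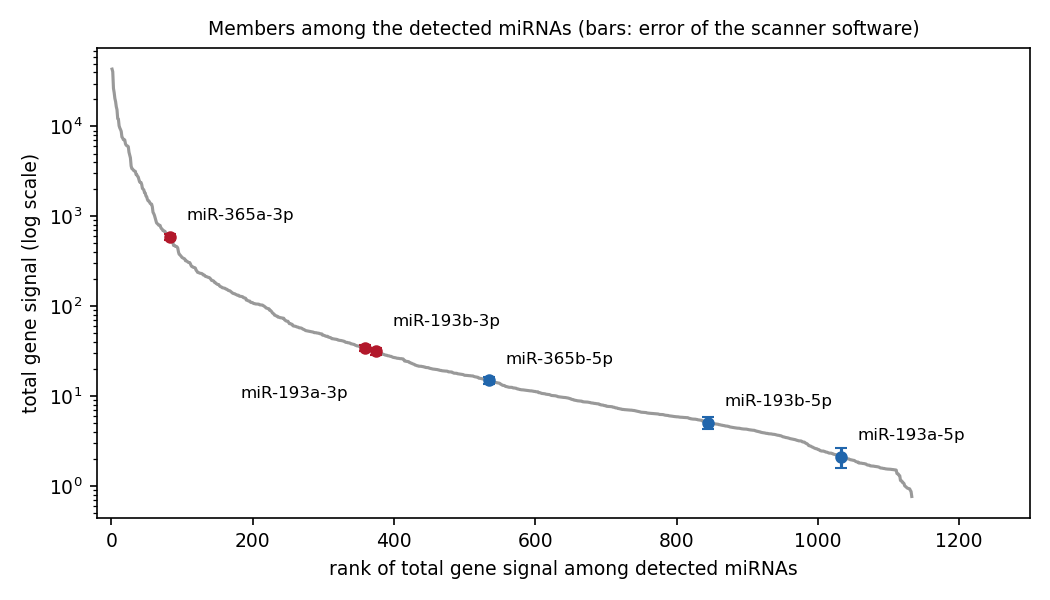
Total gene signal on a log axis against its rank among the 1133 detected miRNAs (grey line), with the 6 detected members as points and the error of the software as bars. The 3p arms in red sit at ranks 83, 359 and 374, and the 5p arms in blue at 534, 845 and 1033.

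On the log2 scale, set against the 75th percentile of the spots of detected miRNAs (a signal of 143), miR-365a-3p had a value of 3.50 ± 0.05 (SD of spots about their probe mean, 18 spots), above the reference whichever spots set the percentile. The values were -0.62 ± 0.10 (20 spots) for miR-193a-3p, -0.97 ± 0.13 (16 spots) for miR-193b-3p and -1.84 ± 0.12 (20 spots) for miR-365b-5p. All 3 turned positive, to 1.82, 1.47 and 0.60, with the percentile over all miRNA spots, a signal of 26.3. Each value is a mean over spots, and trimming left miR-193b-3p with 6 spots of its brighter probe and 10 of its dimmer probe. That mean weighs the dimmer probe more, and it was -0.83 with outliers kept. For miR-193b-5p the value was -2.90 ± 0.19 (10 spots of 1 probe), since its dimmer probe did not pass the filter. It was -3.51 with both probes, -3.45 from the deposited values, -1.37 with normexp, another background correction, and -0.46 with the percentile over all miRNA spots. The members miR-193a-5p and miR-365a-5p had no probe with enough spots well above background and were given no value. The median over these 5 members was -0.97, which is the value of miR-193b-3p, beside -1.50 over the 967 detected miRNAs with such a value.

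The 2 probes of a member share their target, so they were compared with each other. They differed by 1.09 ± 0.05 (SE from replicate spots) on the log2 scale for miR-193b-3p, 0.60 ± 0.06 for miR-365b-5p and 0.48 ± 0.04 for miR-193a-3p, beside 0.12 ± 0.02 for miR-365a-3p. Over the 683 detected miRNAs with 2 probes that passed the same filter, the median was 0.32. The difference of miR-193b-3p was larger than that of 87.1% of them, and the difference of miR-365a-3p larger than that of 24.2%. For all 4 members the probes differed by more than the spread of their spots. Normexp was run with an offset of 50 added to each spot, which by itself shrinks log2 differences, most for dim probes. With it the differences were 0.65 for miR-193b-3p, 0.25 for miR-365b-5p, 0.29 for miR-193a-3p and 0.12 for miR-365a-3p, so miR-365b-5p and miR-193a-3p changed places.

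**Figure D4:**
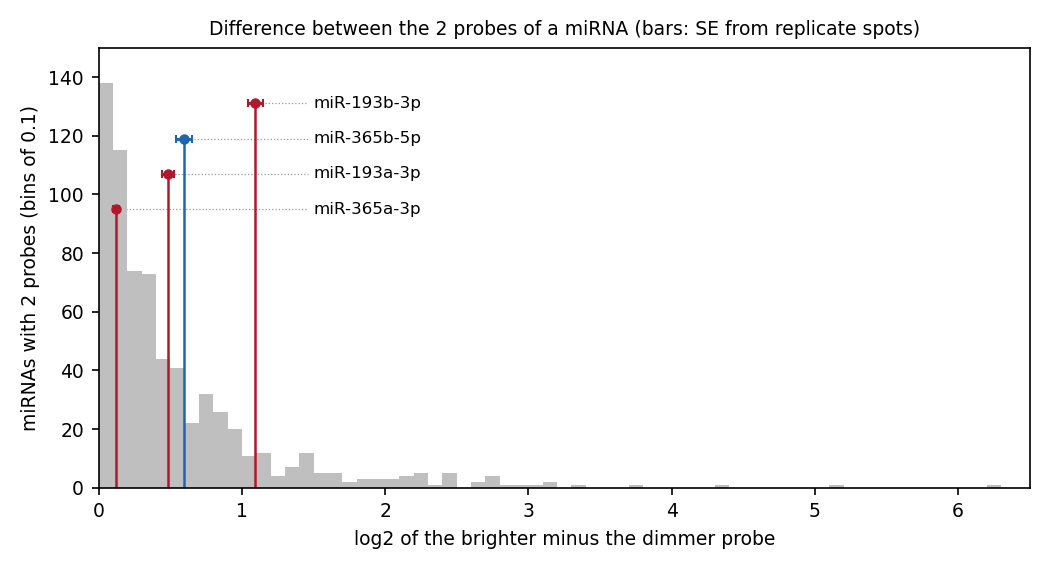
Histogram of the log2 difference between the brighter and the dimmer probe over 683 miRNAs with 2 probes, with the 4 members marked at 0.12, 0.48, 0.60 and 1.09 (bars, SE from replicate spots). The y axis counts miRNAs, and the heights of the member marks have no meaning.

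Over the 9 of 14 member probes that passed the filter, the coefficient of variation (CV) ran from 0.860% to 13.0% with a median of 6.61%, beside a median of 8.74% over the 1943 such probes of the array. The lowest value belongs to the trimmed probe of miR-193b-3p and was 4.50% with its outliers kept. Of the 140 spots of members, 10 or 7.14% were left out as outliers, against 4.51% of all miRNA spots. Those well above background numbered 94, or 67.1%, against 34.3% of all miRNA spots.

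The base content of the arms was set beside these signals. The brightest member, miR-365a-3p, has a GC content of 31.8%, the lowest of the members. The 3p arms of miR-193a and miR-193b have 50% and 59.1%, and the 5p arms lie between 56.5% and 59.1%. The undetected miR-365a-5p has 56.5% and miR-365b-5p 59.1%. With 7 members this is a description, and a part of base content in the signal was not tested.

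Other miRNAs of similar sequence were looked up by edit distance among the 2248 array miRNAs that matched a RefSeq mature sequence by name. Outside the clusters the nearest sequences were 7 to 9 edits away. For both miR-193a-5p and miR-193b-5p this was miR-7110-5p, at 7 edits and a total gene signal of 50.3 ± 3.63, brighter than either of them. For miR-365a-5p it was miR-378h at 7 edits, called undetected. For miR-365a-3p it was miR-3133 and miR-7973 at 8 edits, both undetected.

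For the remaining members several sequences tied. Those at 8 edits from miR-193a-3p were miR-6855-3p at 41.4 ± 3.09 and miR-5588-3p at 2.04 ± 0.522, with miR-3160-3p and miR-4438 undetected. At 9 edits from miR-193b-3p were the same miR-6855-3p and miR-5588-3p, miR-6757-3p at 39.1 ± 3.17 and miR-3176 at 18.0 ± 1.54, with miR-1245a, miR-1251-5p, miR-3181 and miR-4718 undetected. At 8 edits from miR-365b-5p were miR-22-5p at 106 ± 8.02 and miR-4327 at 7.50 ± 0.862, with miR-149-3p, miR-4724-3p, miR-7161-5p and miR-8052 undetected. No binding between these probes and the members was tested.

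The deposited processed values kept the order of the members, with the dim ones pressed close together. They are log2 values after quantile normalization, and were 9.03 for miR-365a-3p, 5.18 for miR-193a-3p, 5.07 for miR-193b-3p, 3.95 for miR-365b-5p and 2.38 for miR-193b-5p. The value of miR-193a-5p, 2.32, was shared by 283 miRNAs. The lowest value of the table, also 2.32 when rounded, was held by miR-365a-5p and by 1416 miRNAs in all. Both 5p arms of miR-193 thus lay within 0.1 of that floor. Relative to log2 of the total gene signal, the processed value was 0.16 lower for miR-365a-3p and 0.04 to 0.10 higher for the other members with a signal over 5, where the median over detected miRNAs was 0.080 higher.

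**Figure D5:**
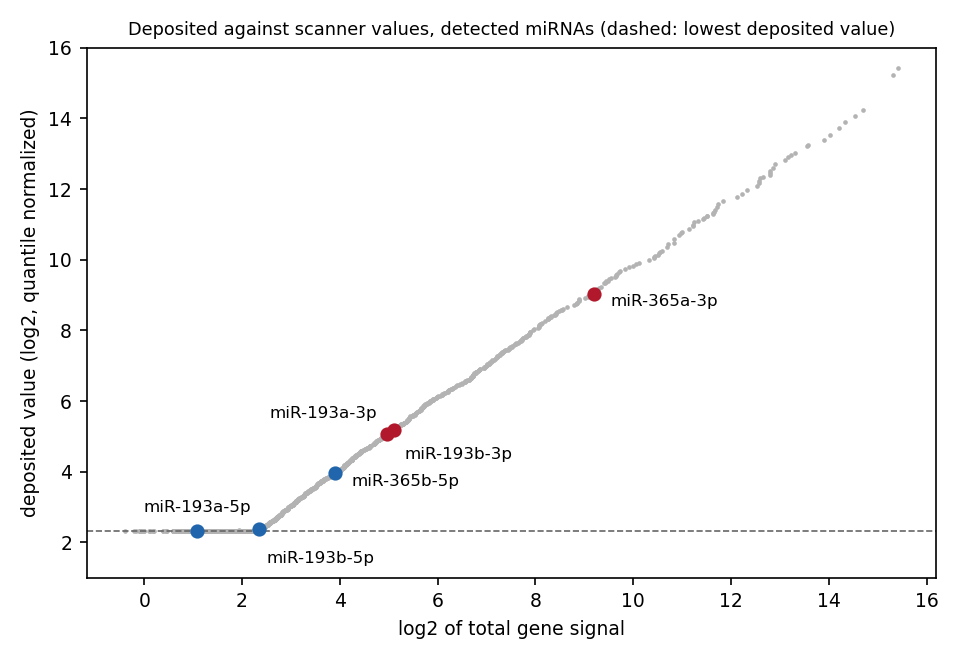
Deposited value against log2 of the total gene signal for the 1133 detected miRNAs (grey), with 3p members in red and 5p members in blue. The members from 3.95 upward lie on a rising line, while miR-193a-5p lies on the flat part at the lowest deposited values and miR-193b-5p at its end.

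In 2 other groups of clustered miRNAs, 10 of 11 mature miRNAs of the miR-23/27/24 clusters and 4 of 4 from the cluster of miR-221 and miR-222 were called detected. Over the whole array the share was 44.4%. With 1 array, these counts and the 6 of 7 above are given side by side and no difference between the groups was tested.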

How the data were processed

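The si-NC sample was the single array analysed. Labelling was by ligation of Cyanine 3-pCp per the labels, whereas the methods of the study name a cDNA kit. Feature Extraction 11.0.1.1 gave each spot its intensity per the file headers, and the deposited intensity is background-subtracted and not normalized between arrays. The authors also deposited log2 values, quantile normalized in GeneSpring, and the sources do not state their floor. Other deposited columns are flags and errors of the software, used as given. The software's total equalled the sum of probe signals past 3 errors, within 0.1%, for 1133 of 1133 detected miRNAs.

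Outlier spots were left out. Log2 spot signals were set against the 75th percentile, and a probe was used where 50% or more of its 10 spots were well above background. SDs are of spots about their probe mean. Alternatives were other detection rules, the percentile over all spots, normexp (limma 3.58.1 in R 4.3.3, offset 50, on median spot signals), outliers kept, medians of 16 blocks of array position removed, no filter on dim probes, and the deposited values. Python 3.11.15, numpy 2.4.6, pandas 2.3.3 and matplotlib 3.10.9 were used. The calculations were tested on simulated data. Sequences came from RefSeq by name (2248 of 2549 miRNAs, 88.2%).

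The members and lists were chosen with earlier results of these data known. The rule for naming took all members, miRNAs with the seed of a member, and the nearest sequence outside the list. Marker lists covered epithelium and colon, muscle, blood, endothelium and stroma, liver and neural cells. The single array limits the precision.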

Additional observations from a re-analysis of the deposited data

How the results depend on the processing

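Over 13 results, 62 alternative values were computed, of which 38 stayed within their limits, 20 moved and 4 changed sign. Some of the 38 were fixed in advance by their setting, as given below, so that count is not a measure of stability. The count of detected members, 6, was 5 with the rule on the spots of 1 probe and 4 with either stricter rule. It was 6 with the deposited floor, where 44.4% of all miRNAs lay above that floor. Every miRNA called detected lay above the floor and the rest at it, so this rule repeats the software's call and could not differ. The count of hairpins with both arms detected, 3, was 2 with the rule on 1 probe and fell to 1 with the rule on every probe. The median log2 signal of the members, -0.97, changed sign to 1.47 when all miRNA spots set the percentile, because the reference fell from 143 to 26.3, and miR-193a-3p, miR-193b-3p and miR-365b-5p changed sign with it, to 1.82, 1.47 and 0.60. That median moved to -0.59 with normexp, -0.83 with outliers kept and -0.76 with deposited values, and to -1.41 without the filter on dim probes, where miR-193a-5p enters. Over the same 5 members, a setting added after the values were seen, the median was -0.97 without that filter. This could not differ, since that median is the value of miR-193b-3p, both of whose probes passed the filter. With outliers kept, miR-193b-3p regained the 4 trimmed spots of its brighter probe. Where not stated, the cause was not tested. The median CV of 6.61% stayed within the SD between probes under each of its alternatives. Normexp, with its added offset of 50, lowered the probe differences of miR-193b-3p from 1.09 to 0.65, of miR-365b-5p from 0.60 to 0.25 and of miR-193a-3p from 0.48 to 0.29. The value of miR-193b-5p, -2.90, moved to -3.51 without the filter on dim probes, -3.45 with deposited values, -1.37 with normexp and -0.46 when all miRNA spots set the percentile. Of 46 values of single members, 28 stayed within the spread of their spots. Some of these could not change. The filter on dim probes removed no probe of miR-193a-3p, miR-193b-3p, miR-365a-3p or miR-365b-5p. No spot of miR-193a-3p or miR-365b-5p was an outlier, so keeping outliers left their probe differences as they were. Signal over background limits the 5p arms of miR-193, whose errors were 25% and 15.4% of the total gene signal.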
